A study of Mus musculus with 8 samples.

Results

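Mouse natural regulatory T (nTreg) cells that carried a guide RNA against Foxp3 were compared with nTreg cells that carried a control guide, in both cases 3 h after restimulation through the T cell receptor (TCR). The libraries were chosen by their labels: 2 Foxp3-guide and 2 control-guide libraries at 3 h, 4 of the 8 RNA-seq libraries of the series. CD4+GFP+ cells had been sorted from spleen and lymph nodes and cultured ex vivo, and the genotype of every library, controls included, was RosaCas9/+ Foxp3gfp, with sgFoxp3 or sgNC as the guide. The 3 h cells received anti-CD3/anti-CD28, while the other 4 libraries, 2 per guide, were mock-treated with DPBS (0 h) and serve here only to show where the guide effect at 3 h differed from that before restimulation. The age and sex of the mice and the time of sorting relative to guide delivery are not given in the sources used here. Whether the paired libraries of a group came from separate mice or cultures is not given in the labels. Each p-value therefore measures library-to-library spread, which may be technical only.

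Foxp3 is an X-linked forkhead transcription factor that specifies regulatory T (Treg) cells. Treg cells display the high-affinity IL-2 receptor but make little IL-2 themselves, and they restrain other T cells through CTLA-4, surface TGF-beta and competition for IL-2. Engagement of the TCR with CD28 activates NFAT, AP-1 and NF-kappaB, which in conventional CD4 T cells switch on cytokine and TNF-family ligand genes within hours. The comparison shows which transcripts differed with the Foxp3 guide once that signal had been given.

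Total expected counts ran from 38729009 to 94807362 per library, and the deepest was the second Foxp3-guide library at 3 h. The time points parted on principal component 1 (78.7% of the variance) and the guides on component 2 (14.8%). Cd4, Cd3e, Cd3d, Trac and Trbc2, which define CD4 T cells, were present in all 4 libraries at 3 h, at 130 CPM or more (counts-per-million of the scaled library size). Ribosomal protein genes took 5.77% and 6.15% of the counts with the control guide and 6.95% and 7.44% with the Foxp3 guide, and mitochondrial transcripts 1.87% to 1.95%. Transcripts of other cell types also differed between the guides and are given after the gene groups.

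Foxp3 itself (ENSMUSG00000039521.13, chrX:7573644-7595245 in GRCm38, plus strand) was measured first, because the guide targets it. It stood at 679 and 673 CPM with the control guide and at 76.1 and 71.8 CPM with the Foxp3 guide. The groups did not overlap, and the transcript was 9.15-fold lower (log2 change -3.19, SE 0.04; edgeR quasi-likelihood test, Benjamini-Hochberg adjusted p = 6.7e-25). In these bulk samples fewer cells of a type and less RNA per cell cannot be told apart, so the remaining 71.8 to 76.1 CPM may come from some cells or from all. The transcript count does not show how much functional protein was left.

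Of 16642 genes with enough counts to test, 61.5% were called at 3 h by edgeR's quasi-likelihood test at a Benjamini-Hochberg adjusted p below 0.05. Of all tested genes 30.7% were higher and 30.8% lower with the Foxp3 guide. Changes of at least 2-fold were called for 1283 genes upward (7.71%) and 1477 downward (8.88%), and of at least 8-fold for 141 and 165. Replicates lay close together, with a biological coefficient of variation of 3.41%, so small differences passed: the median size of a called change was 0.50 on the log2 scale. The balance of directions rests on scaling. On TMM-scaled counts 49.9% of the calls were higher and the median of all tested genes was -0.009, while on log2(TPM+1) 27.4% were higher and the median was -0.118. The direction of a small change therefore depends on scaling, also for some changes larger than that median. Cd3e, for one, moved by 0.24 on counts and by -0.01 on log2(TPM+1). The counts of members higher or lower include such changes where they passed the test. Each gene list is read against the 30.7% and 30.8% of all genes. The plot of log2 change against expression shows the spread over all tested genes.

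**Figure D1:**
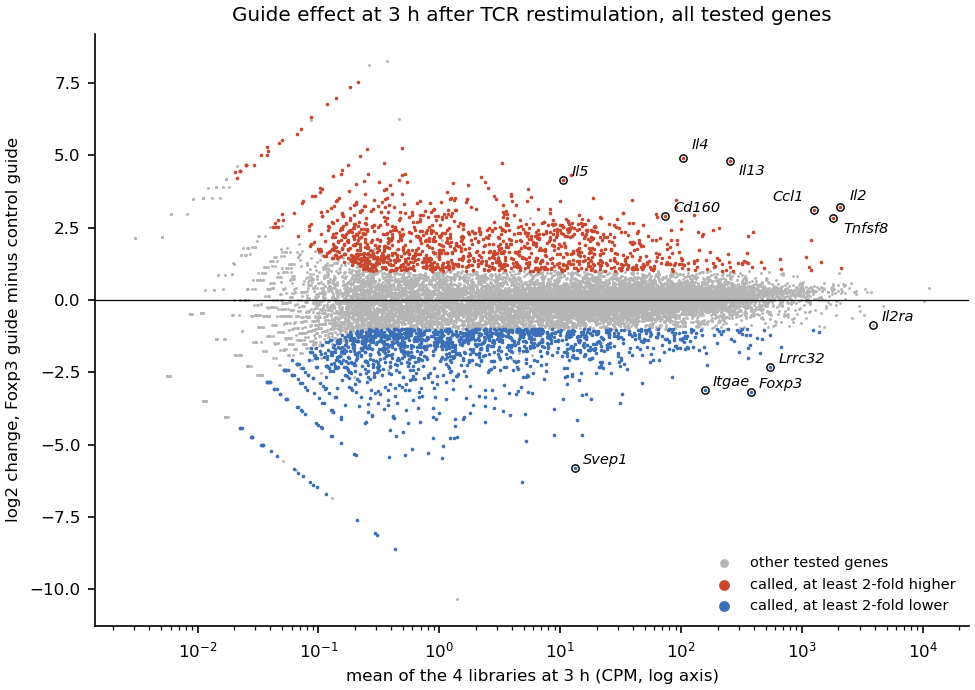
Log2 change (Foxp3 guide minus control guide, 3 h) against mean CPM over the 4 libraries at 3 h on a log axis, 1 point per tested gene, with genes called at least 2-fold higher or lower in colour and 12 genes labelled. Above 5 CPM, Il4 and Il13 lie at the top, at log2 changes of 4.91 and 4.81, and Svep1 at the bottom, at -5.82, while Il2 combines a rise of 3.22 with a high level. The fans of points at the far left are genes with few counts.

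Cytokine genes were among the most raised. Of 22 effector cytokine genes tested, 16 rose and 4 fell, with a median log2 change of 1.63 (1.02 on log2(TPM+1)), where 30.7% of all genes rose. The type 2 cytokines came first. Il4, the cytokine that drives type 2 helper differentiation and IgE switching (ENSMUSG00000000869.12, chr11:53602982-53618669 in GRCm38, minus strand), stood at 7.21 and 6.04 CPM with the control guide and at 193 and 207 CPM with the Foxp3 guide. Both Foxp3-guide libraries lay above both controls, and the rise was 30.1-fold (log2 4.91, SE 0.07). Its neighbour Il13, which acts on epithelium and mucus production, stood at 17.0 and 17.9 CPM with the control guide and at 480.4 and 498 CPM with the Foxp3 guide, a rise of 28.1-fold. Il5, the eosinophil growth factor on the far side of Rad50, stood at 1.18 and 1.06 CPM with the control guide and at 20.8 and 19.1 CPM with the Foxp3 guide and rose 17.7-fold.

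Il2, whose product drives T cell proliferation (ENSMUSG00000027720.7, chr3:37120523-37125959 in GRCm38, minus strand), added the most CPM of any gene that met the rule for naming single genes (called, guides not overlapping, a mean of at least 5 CPM, and neither a pseudogene nor an unnamed gene model). It stood at 392 and 398 CPM with the control guide and at 3617 and 3769 CPM with the Foxp3 guide, so that the groups lay 9.34-fold apart (log2 3.22, SE 0.07; edgeR quasi-likelihood test, Benjamini-Hochberg adjusted p = 2.5e-13). The itch-associated cytokine Il31 went from 14.6 and 15.6 to 163 and 168 CPM, 11-fold higher. Il6, an inflammatory cytokine, was low in both groups, at 0.688 and 0.661 against 7.08 and 7.43 CPM, yet 10.7-fold higher. Csf2 (GM-CSF) stood at 124 and 135 against 648 and 670.3 CPM and Il3, a growth factor for mast cells and basophils, at 444 and 463 against 1862 and 1973 CPM. In every one of these genes the libraries of a guide lay close together and the groups did not overlap.

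Cytokines of other helper lineages rose by less. Ifng, the type 1 helper cytokine, stood at 183 and 188 against 447 and 452 CPM, a rise of 2.42-fold. Of the IL-17 pair, Il17f rose 3.66-fold, from 20.4 and 19.6 to 70.5 and 75.7 CPM, and Il17a 2.01-fold, from 13.2 and 12.5 to 25.2 and 26.3 CPM. Il21, the follicular helper cytokine, rose 1.97-fold. The cytokines that fell included those tied to suppression: Il10 stood at 228 and 232 against 146 and 154 CPM (log2 -0.62, SE 0.04), and Tgfb1, the transcript of latent TGF-beta, fell by 0.22. Il16, a chemoattractant for CD4 cells, fell by 1.25 and Osm, a cytokine of the IL-6 family, by 0.35. The 2 cytokines not past the test were Csf1, at 56.7 and 54.5 against 57.5 and 55.5 CPM, and Tgfb3.

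**Figure D2:**
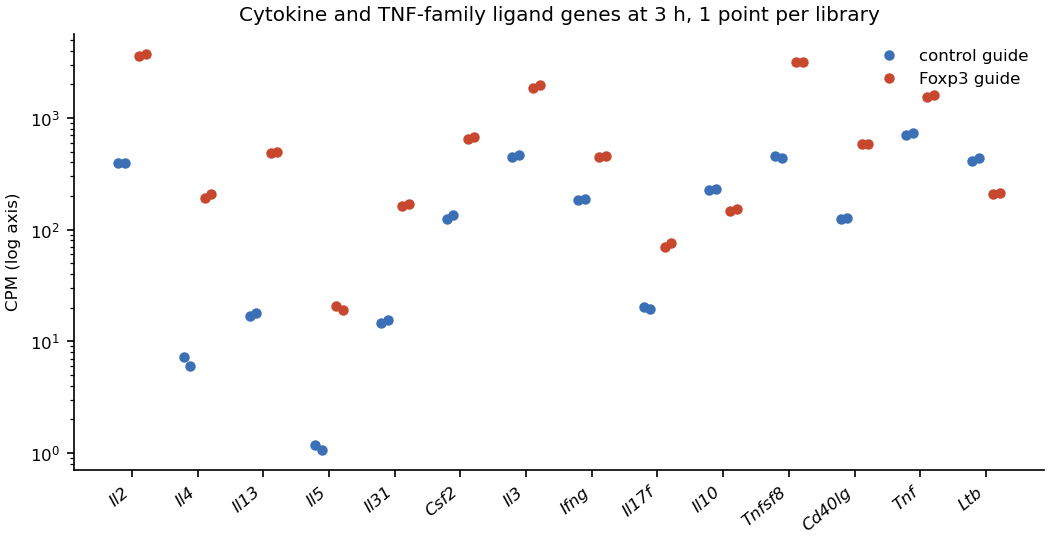
CPM of 14 cytokine and TNF-family ligand genes in each of the 4 libraries at 3 h (log axis), control guide against Foxp3 guide, 1 point per library. Points of a guide nearly coincide, and the Foxp3-guide points lie above the controls for every gene shown except Il10 and Ltb.

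The type 2 cytokine genes sit in a cluster on chromosome 11 of GRCm38 with the cytokine genes Csf2 and Il3 and with genes of unrelated functions. The latter did not follow as a block. From Sept8 to Acsl6, a span of 845.5 kb, 11 of the 14 listed genes were higher and 2 lower. Csf2 and Il3 rose by 2.35 and 2.08 on the log2 scale. Kif3a, the listed gene next to Il4, rose by 0.73, at 2.80 and 3.02 against 5.31 and 4.48 CPM. Rad50, the DNA repair gene that lies between Il13 and Il5 and holds their locus control region, moved by 0.18 (SE 0.05) and by 0.05 on log2(TPM+1). Sept8, a septin at the edge of the cluster, moved by 0.18, did not pass without the first control or the first Foxp3-guide library (0.11 and 0.14) and turned to -0.04 on log2(TPM+1). Irf1, the next gene after Il5 and a transcription factor of type 1 responses, fell: it stood at 469 and 476 CPM with the control guide and at 134 and 136 CPM with the Foxp3 guide. Slc22a5, a carnitine transporter, fell by 0.73. Beyond it Pdlim4 rose 19.2-fold from a low level (0.133 and 0.307 against 3.92 and 4.43 CPM), P4ha2 rose 2.16-fold and the acyl-CoA synthetase gene Acsl6 2.23-fold. Thus genes with log2 changes above 4 alternated along the cluster with genes that moved less or fell, as the plot of the type 2 locus shows.

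**Figure D3:**
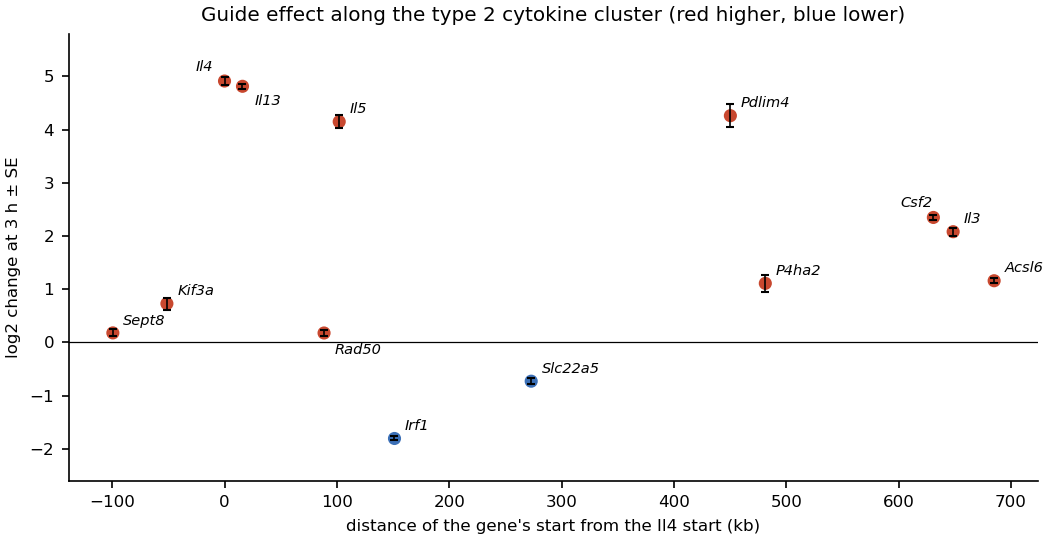
Log2 change (Foxp3 guide minus control guide, 3 h) with SE bars for 13 genes of the type 2 cytokine cluster, by distance of each gene's start from that of Il4 in kb. Il4, Il13, Il5 and Pdlim4 stand above 4, Rad50 and Sept8 at 0.18, and Irf1 and Slc22a5 below 0.

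The bases just before the start sites of Il2, Il4 and Il13 are shown because these genes had 3 of the largest rises and because NFAT, the calcium-activated factor of TCR signalling, has a short core motif that can be read there. Each sequence is the 250 bases before the start site in the RefSeq promoter table (GRCm38.p6), 5′ to 3′ on the gene's strand, with GGAAA on either strand in capitals. Il2 is at chr3:37125955-37126204, Il4 at chr11:53618666-53618915 and Il13 at chr11:53634703-53634952, all on the minus strand.
Il2: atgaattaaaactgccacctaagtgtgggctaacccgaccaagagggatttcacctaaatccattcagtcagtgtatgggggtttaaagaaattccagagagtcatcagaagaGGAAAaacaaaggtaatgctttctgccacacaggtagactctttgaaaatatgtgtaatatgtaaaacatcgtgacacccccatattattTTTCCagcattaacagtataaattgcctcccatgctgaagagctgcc
Il4: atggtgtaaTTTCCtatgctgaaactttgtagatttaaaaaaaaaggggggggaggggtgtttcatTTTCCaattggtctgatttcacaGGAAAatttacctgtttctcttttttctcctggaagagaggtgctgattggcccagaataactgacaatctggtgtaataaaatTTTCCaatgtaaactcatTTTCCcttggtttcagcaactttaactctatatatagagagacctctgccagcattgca
Il13: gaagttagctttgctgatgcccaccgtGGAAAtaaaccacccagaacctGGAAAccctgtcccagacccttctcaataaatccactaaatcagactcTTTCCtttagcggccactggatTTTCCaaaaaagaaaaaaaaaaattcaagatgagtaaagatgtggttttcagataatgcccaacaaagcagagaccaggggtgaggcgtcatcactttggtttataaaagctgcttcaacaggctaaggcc
The Il2 window held 2 matches, that of Il4 5 and that of Il13 4. Of 10184 tested protein-coding genes with an entry, 53.9% held at least 1 GGAAA in a window of the same length. The share was 83.3% of 18 effector cytokine genes, 58.1% of 757 genes called at least 2-fold higher and 50.5% of 867 called at least 2-fold lower. An AP-1 motif, TGANTCA on either strand, stood in 4.19% of all windows, in 27.8% of the cytokine windows and in 0 of these 3. The forkhead core TGTTTAC on either strand, the kind of motif that Foxp3 binds, was in 2.15% of all windows, in 2.91% of those at least 2-fold higher and in 3.23% of those at least 2-fold lower. A match of this length describes the letters only and shows no binding.

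Ligands and receptors of the TNF superfamily moved in opposite directions. Ligands deliver costimulation or death signals from the surface of activated T cells, and 10 of the 13 tested rose and 2 fell (median 0.98; 0.63 on log2(TPM+1)). Tnfsf8 (CD30 ligand) went furthest: it stood at 459 and 434 CPM with the control guide and at 3200.0 and 3146 CPM with the Foxp3 guide, and the groups lay 7.10-fold apart (log2 2.83, SE 0.04). Cd40lg, the CD40 ligand that activates B cells and dendritic cells, stood at 124 and 128 against 585 and 588 CPM, 4.65-fold higher. The death ligand Fasl rose 2.73-fold, Tnfsf11 (RANK ligand) 2.68-fold and Tnf 2.18-fold, the last from 708 and 735 to 1551 and 1594 CPM. Tnfsf4 (OX40 ligand) and Tnfsf14 (LIGHT) rose 1.97-fold and 1.78-fold. Ltb, the membrane lymphotoxin that organises lymphoid tissue, fell from 411 and 438 to 209 and 214 CPM (log2 -1.0), and Cd70 by 0.27. The fall of Cd70 did not pass without the second library of either guide (log2 -0.15 and -0.17). Lta, at 297 and 315 against 313 and 334 CPM, did not pass, but did without the second control library or the first Foxp3-guide library (log2 0.13 in each). On log2(TPM+1) Lta was called in the other direction (-0.12; limma, Benjamini-Hochberg adjusted p = 0.036).

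Of 19 TNF receptor genes tested, 15 fell and 2 rose (median -0.64; -0.69 on log2(TPM+1)), where 30.8% of all genes fell. Tnfrsf18 (GITR), a costimulatory receptor abundant on Treg cells, stood at 584 and 635 CPM with the control guide and at 244 and 250.2 CPM with the Foxp3 guide. Tnfrsf9 (4-1BB) stood at 2006 and 2006 against 1043 and 1042 CPM, and Tnfrsf1b (TNF receptor 2, which sustains Treg cells) at 656 and 642 against 319 and 313 CPM. In each of these 3 genes both Foxp3-guide libraries lay far below both controls. Tnfrsf8 (CD30), the receptor for the ligand that had risen most, was 5.93-fold lower at 21 and 22.2 against 3.63 and 3.65 CPM. Cd27, the receptor for CD70, was 2.25-fold lower, and Cd40 3.13-fold lower. Tnfrsf11a (RANK), the receptor for RANK ligand, fell from 1.75 and 1.98 CPM to 0.102 and 0.134 CPM. Thus CD30, RANK and CD40 receptor transcripts were lower while those of their ligands were higher. The libraries of Tnfrsf4 (OX40) overlapped in CPM, at 1424 and 1491 against 1468 and 1504 (log2 0.03, SE 0.04), while on log2(TPM+1) it was called lower (-0.19; limma, Benjamini-Hochberg adjusted p = 0.0014). Tnfrsf21 (death receptor 6) rose 1.91-fold.

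Among 14 chemokine ligand genes 10 rose and 3 fell (median 0.59; 0.39 on log2(TPM+1)). Ccl1, which attracts CCR8-positive T cells, stood at 252 and 270.3 CPM with the control guide and at 2222 and 2320.0 CPM with the Foxp3 guide, 8.69-fold higher (edgeR quasi-likelihood test, Benjamini-Hochberg adjusted p = 0.00018). DESeq2 gave the same log2 change, 3.12, with an adjusted p of 0.16, so the call rests on the test used. Ccl20, the ligand of CCR6, rose 4.38-fold from 25.6 and 24.4 to 106 and 113 CPM, and the inflammatory chemokine gene Ccl5 3.10-fold. Ccl22, Ccl17 and Cxcl9 rose 3.63-fold, 7.62-fold and 11.9-fold, but none of the 3 passed 8 CPM in any library. The abundant inflammatory chemokines moved little, with Ccl3 at 589 and 621 against 521 and 548 CPM and Ccl4, which did not pass, at 961 and 1028 against 1054 and 1145 CPM. Ccl4 did pass in 6 of the 8 fits that left out 1 library (log2 0.15 to 0.21). Cxcl10, an interferon-induced chemokine, was 2.24-fold lower.

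Receptors that guide T cells fell more often than they rose. Of 30 chemokine receptor, adhesion and egress genes, 18 fell and 10 rose (median -0.24; -0.38 on log2(TPM+1)). Receptors of inflamed tissue were among the rises: Ccr2 stood at 14.1 and 15.0 against 71.8 and 71.0 CPM, 4.91-fold higher, Cxcr6 was 4.52-fold higher, at 10.4 and 9.82 against 45.4 and 46.2 CPM, and Cxcr3 2.07-fold higher. Receptors for lymphoid tissue fell, with Ccr7 at 78.4 and 81.3 against 25.1 and 26.0 CPM, Cxcr4 at 29.1 and 25.4 against 8.27 and 8.06 CPM and Cxcr5, the follicle receptor, at 7.66 and 7.29 against 1.35 and 1.46 CPM. Ccr6 was 3.46-fold lower. The egress receptor S1pr1 stood at 42.8 and 40.8 CPM with the control guide and at 8.86 and 9.61 CPM with the Foxp3 guide, and Klf2, the transcription factor that maintains it, at 19.1 and 21.1 against 2.77 and 2.63 CPM. Ccr8, a receptor of tissue Treg cells, fell by 0.47, while its ligand Ccl1 rose.

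The Treg signature list held 32 tested genes, of which 19 were lower and 9 higher, with 4 not past the test (median -0.80; -0.86 on log2(TPM+1)). Lrrc32 (GARP), the anchor of latent TGF-beta, stood at 915 and 914 CPM with the control guide and at 179 and 184 CPM with the Foxp3 guide, 5.05-fold lower, and Itgb8, the integrin subunit that releases it, at 251 and 228 against 123 and 123 CPM, 1.94-fold lower. Itgae (CD103), which pairs with another integrin chain to bind E-cadherin, stood at 289.9 and 273 against 32.5 and 32.6 CPM, 8.64-fold lower. Ctla4, which removes CD80 and CD86 from dendritic cells, stood at 1004 and 1015 CPM with the control guide and at 323 and 329.9 CPM with the Foxp3 guide, 3.09-fold lower (log2 -1.63, SE 0.05). Il2ra, the IL-2 receptor alpha chain, stood at 5099 and 4928 against 2732 and 2739 CPM and lost more CPM than any other gene that met the rule for naming.

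Further falls in the signature were Gpr83 (3.67-fold), Swap70 (3.55-fold), Plagl1 (3.09-fold), Cd83 (2.53-fold), Ikzf4, the Ikaros-family factor Eos (2.17-fold), Izumo1r, folate receptor 4 (2.16-fold), and Nt5e, CD73 (1.75-fold). Not all of the signature fell. Helios (Ikzf2) stood at 462 and 423 against 468 and 478 CPM, Nrp1 at 268 and 254 against 248 and 243 CPM and Entpd1 (CD39), which makes AMP upstream of CD73, at 21.4 and 18.8 against 21.8 and 20.9 CPM, none of which passed. Ikzf2 and Entpd1 passed without the first control library (log2 0.16 and 0.18) and Nrp1 without the second (log2 -0.13). The genes that rose were Tigit (1.58-fold), Icos (1.31-fold), Penk, an enkephalin precursor (1.38-fold, not past the test on log2(TPM+1)), Fgl2 (1.84-fold), the IL-33 receptor gene Il1rl1 (2.14-fold), Lgals1 (2.16-fold), S100a4 (3.81-fold), Ecm1 (1.26-fold) and Capg (1.13-fold, and 0.0 on log2(TPM+1)). Several of these 9 are also known as activation genes of other T cells.

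Inhibitory and costimulatory receptors moved in both directions. Of 21 genes 12 rose and 7 fell (median 0.28; 0.07 on log2(TPM+1)). Cd160, an inhibitory receptor that binds HVEM, stood at 18.3 and 16.9 CPM with the control guide and at 126 and 135 CPM with the Foxp3 guide, 7.38-fold higher, and Havcr2 (TIM-3) at 76.4 and 74.5 against 194 and 197 CPM, 2.59-fold higher. Pdcd1 (PD-1) rose 1.41-fold from 247 and 252 to 351 and 353 CPM. Its ligand Cd274 (PD-L1) moved the other way, at 1049 and 1020.0 against 679 and 674 CPM, as did Cd200r1 (1.60-fold lower), Vsir (VISTA; 1.31-fold lower) and Lag3 (1.26-fold lower). Cd28, the receptor bound by the restimulating antibody, overlapped between the guides, at 198 and 185 against 192 and 192 CPM, while on log2(TPM+1) it was called lower (-0.21; limma, Benjamini-Hochberg adjusted p = 0.0096).

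**Figure D4:**
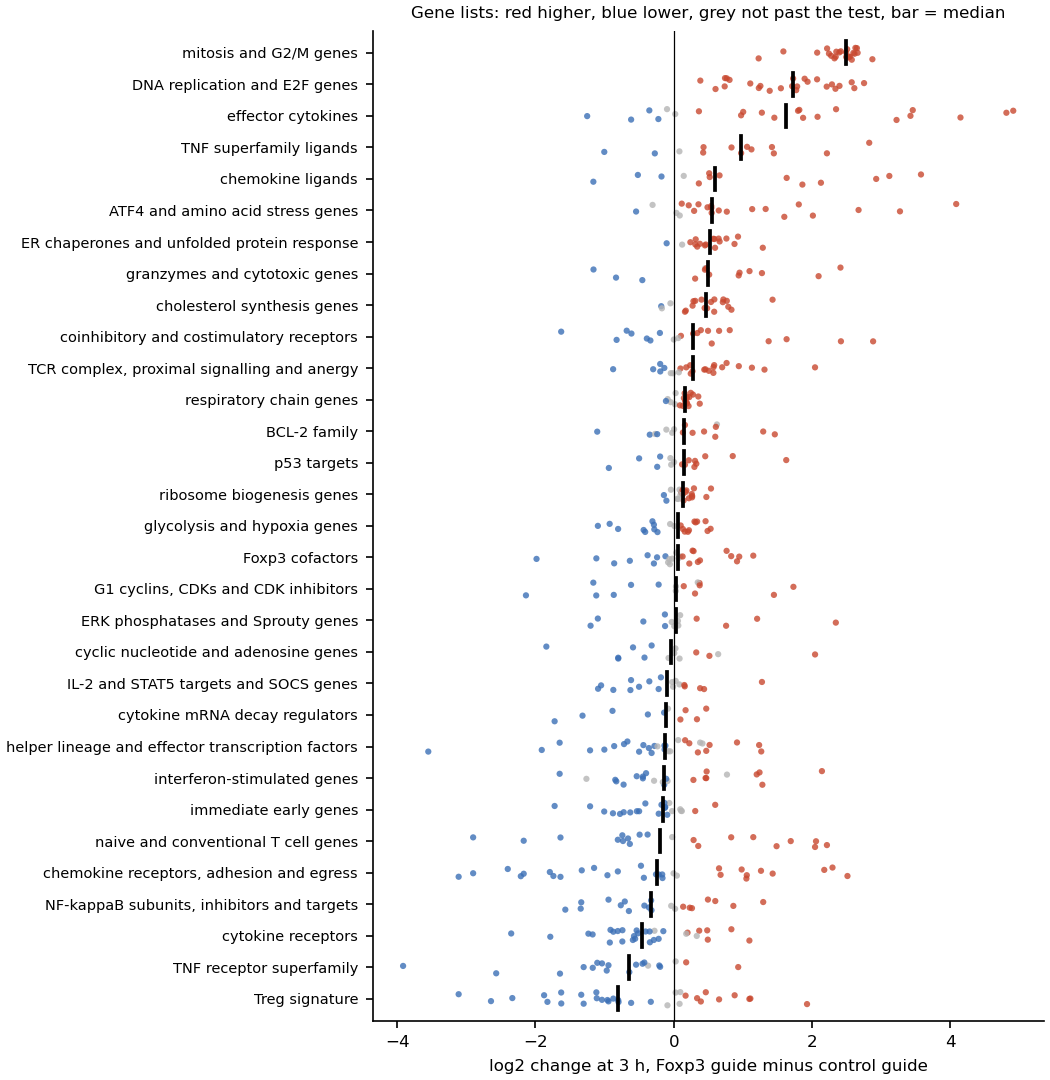
Log2 change (Foxp3 guide minus control guide, 3 h) of every tested gene in 31 functional gene lists, 1 point per gene, with the list median as a bar and lists ordered by their median. The mitosis, replication and effector cytokine lists have the highest medians, at 2.49, 1.73 and 1.63, and the Treg signature and TNF receptor lists have the lowest, at -0.80 and -0.64.

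Receptors for cytokines were lower as a group: 21 of 30 tested fell and 6 rose (median -0.46; -0.58 on log2(TPM+1)). The 3 chains of the IL-2 receptor fell by unequal amounts, Il2ra by 0.87, the shared gamma chain Il2rg by 0.41 and Il2rb by 0.29 on the log2 scale. Both chains of the interferon-gamma receptor fell, Ifngr1 from 110.3 and 112 to 31.0 and 33.3 CPM and Ifngr2 from 26.0 and 28.4 to 12.3 and 11.8 CPM, and so did both chains of the IL-10 receptor, Il10rb by 1.23 and Il10ra by 0.92. Tgfbr1, the signalling receptor for TGF-beta, stood at 778 and 722 against 400.4 and 395 CPM, and Il12rb2 was 1.75-fold lower. Csf2rb, the beta chain shared by the IL-3, IL-5 and GM-CSF receptors, was 5.10-fold lower at 1.42 and 1.63 against 0.245 and 0.328 CPM, while the genes of all 3 ligands were higher. Il1rl1 and its partner Il1rap, which together form the IL-33 receptor, both rose, the latter from 46.0 and 43.3 to 81.4 and 78.0 CPM, and Il18rap rose 1.41-fold. These 3 genes of the IL-1 receptor family had the largest rises of the list, while the decoy Il1r2 and Il18r1 fell by 0.35 and 0.56.

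Of 18 IL-2 and STAT5 targets and SOCS genes 9 fell, 5 rose and 4 did not pass (median -0.10), and on log2(TPM+1) 13 fell and 3 rose (median -0.32). The feedback inhibitors Socs2 and Socs3 fell by 1.09 and 1.05 and Socs1 by 0.63, while Cish, an inhibitor of STAT5 signalling, stood at 1078 and 1122 against 973 and 961 CPM (log2 -0.19). Stat5a rose 1.3-fold and the survival gene Bcl2 1.36-fold. At 0 h 16 of the 18 were lower with the Foxp3 guide (median -1.08), where 29.1% of all genes were lower. For 14 of the 18 the guide effect was more positive at 3 h by the test of the difference, where 17.8% of all genes were. Cish shows this: its guide effect was -2.32 at 0 h and -0.19 at 3 h, a difference of 2.14 (SE 0.06; edgeR quasi-likelihood test, Benjamini-Hochberg adjusted p = 1.2e-18).

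Transcription factors of helper lineages did not mirror the cytokines. Of 30 tested 16 fell, 8 rose and 6 did not pass (median -0.13), and on log2(TPM+1) 18 fell and 5 rose (median -0.32). Gata3, the factor of type 2 helper cells, stood at 228 and 236 against 215 and 212 CPM (log2 -0.12, SE 0.04), while the cytokine genes it controls, Il4, Il5 and Il13, rose as given above. Tbx21 (T-bet), the factor of type 1 cells, was 1.42-fold lower, at 332 and 342 against 237 and 240.1 CPM, while Ifng was higher. Stat3, which signals for IL-6 family cytokines, was 1.82-fold lower. Prdm1 (Blimp-1), which in T cells limits IL-2, was 3.76-fold lower, and Eomes and Hopx 2.31-fold and 2.0-fold lower. Myb, a factor of effector Treg differentiation, had the largest fall of the list, from 57.6 and 58.6 to 4.63 and 5.18 CPM. Upward, Bcl6, the follicular helper factor, stood at 56.1 and 58.1 against 134 and 135 CPM and Zeb2 at 76.7 and 72.3 against 176 and 182 CPM. Irf4 and Batf, which respond to TCR strength, moved by 0.23 and -0.13. Changes this small rested on single libraries: Gata3 did not pass without the second control library or the second Foxp3-guide library (-0.09 and -0.07), nor Batf without the second control library or either Foxp3-guide library (-0.13 to -0.08). On log2(TPM+1) Irf4 stood at 0.01.

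Known partners of Foxp3 moved in both directions, 11 up and 8 down of 26 tested (median 0.06), but 6 up and 12 down on log2(TPM+1) (median -0.17). Foxp1, a forkhead relative that can share Foxp3's sites, rose 2.22-fold from 159.8 and 154 to 352 and 344 CPM. Ikzf1 (Ikaros) rose 1.93-fold, Satb1, a genome organiser that Foxp3 represses, 1.78-fold and Nfatc1, the inducible NFAT gene, 1.70-fold. Hdac9 fell from 1.69 and 1.70 CPM to 0.408 and 0.438 CPM, and Ikzf4 has been given with the signature. Of 20 naive and conventional T cell genes 9 rose and 10 fell. Themis, a signalling adaptor, stood at 25.4 and 22.4 against 100.5 and 98.7 CPM and Igfbp4 at 34.3 and 32.5 against 91.9 and 95.3 CPM, both higher. Tcf7 (TCF-1) moved by 0.29 at 3 h (0.07 on log2(TPM+1)) against 2.39 at 0 h, and Lef1 and Il7r fell by 0.38 and 0.74 at 3 h, where at 0 h their guide effects were 0.86 and 0.35.

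The TCR pathway itself showed higher receptor and kinase transcripts and lower immediate early transcripts. Of 25 genes of the TCR complex, its proximal signalling and anergy, 17 rose and 5 fell (median 0.27), and on log2(TPM+1) 12 rose and 7 fell (median 0.07). Zap70, the kinase that binds the receptor's phosphorylated chains, stood at 234 and 249 CPM with the control guide and at 523 and 536 CPM with the Foxp3 guide, 2.19-fold higher, and the phosphatase gene Ptprc (CD45) at 1439 and 1311 against 2664 and 2618 CPM. Negative regulators in the list went both ways: Cblb, a ubiquitin ligase of anergy, was 2.48-fold higher and the phosphatase gene Ptpn22 1.63-fold higher, while the adaptor gene Sla2 fell by 0.88.

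Of 24 immediate early genes 17 fell, 2 rose and 5 did not pass (median -0.16; -0.37 on log2(TPM+1)). Jun, an AP-1 subunit, stood at 474 and 482 against 206 and 207 CPM, Junb at 814 and 886 against 502 and 489.7 CPM and Egr1 at 489 and 492 against 267 and 267 CPM, all lower. Fos, at 25.4 and 25.9 against 26.6 and 28.5 CPM, and Nr4a1, at 1672 and 1703 against 1601 and 1627 CPM, did not pass, and Myc moved by only -0.14 (-0.09, not past the test, without the second Foxp3-guide library). Egr2, which restrains T cell activation, was 1.52-fold higher, at 764 and 768 against 1147 and 1176 CPM. Thus Jun, Junb and Egr1 were lower in the same libraries in which Il2, Tnf and Cd40lg were higher.

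Of 14 ERK feedback genes 4 rose and 5 fell (median 0.03), and on log2(TPM+1) 3 rose and 7 fell (median -0.19). Dusp6, the ERK phosphatase, stood at 45.8 and 45.8 CPM with the control guide and at 231 and 234 CPM with the Foxp3 guide, 5.08-fold higher, while Spry2 and Etv5, both induced by ERK, were 2.30-fold and 2.14-fold lower. Among 20 NF-kappaB genes 11 fell and 7 rose (median -0.32; -0.52 on log2(TPM+1)). Rela, a subunit, rose 1.41-fold. The inhibitor Nfkbia and the target Icam1, the ligand of LFA-1, were lower, at 672 and 717 against 355 and 367 CPM and 552 and 569 against 185 and 193 CPM. Nfkbid, a nuclear IkappaB protein, rose 1.82-fold. The survival genes Bcl2a1d and Bcl2a1b rose 2.45-fold and 1.52-fold, but reads of these close relatives may be assigned to either gene.

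Regulators of cytokine mRNA decay, not all of which degrade mRNA themselves, were counted because many cytokine transcripts are unstable. Of 10 tested 5 fell and 4 rose (median -0.11), and on log2(TPM+1) 7 fell and 2 rose (median -0.33). Zfp36 (tristetraprolin), which destroys mRNAs with AU-rich elements such as Tnf, stood at 129.8 and 135 CPM with the control guide and at 38.9 and 41.2 CPM with the Foxp3 guide, 3.30-fold lower. Zc3h12d, a member of the Regnase family, was 2.50-fold lower, N4bp1, another ribonuclease, 1.85-fold lower and Zc3h12a (Regnase-1) 1.3-fold lower. The rises were smaller: Rc3h1 (Roquin-1) 1.39-fold and Zfp36l2 1.26-fold. Whether cytokine mRNA was more stable was not tested.

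Enzymes of cyclic nucleotides and adenosine gave 3 rises and 6 falls of 14 (median -0.03; -0.24 on log2(TPM+1)). Pde3b, a phosphodiesterase gene that Foxp3 represses, stood at 1.49 and 1.89 against 7.24 and 6.74 CPM, 4.13-fold higher, and Pde2a moved the other way, 3.59-fold lower at 13 and 11.1 against 3.57 and 3.23 CPM. Pde4a was 1.74-fold and Pde4b 1.5-fold lower.

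Genes of DNA replication and mitosis rose. All 24 mitosis and G2/M genes and all 25 DNA replication and E2F genes were higher, with median log2 changes of 2.49 and 1.73 (1.91 and 1.24 on log2(TPM+1)). Ccnb1, the mitotic cyclin, stood at 5.66 and 4.51 CPM with the control guide and at 38.1 and 36.8 CPM with the Foxp3 guide, 7.33-fold higher, and its kinase Cdk1 at 8.86 and 9.63 against 51.7 and 52.3 CPM, 5.63-fold higher. The proliferation marker Mki67 stood at 60.3 and 54.8 against 319 and 296 CPM. Of the replication genes, Rrm2, the regulated subunit of ribonucleotide reductase, stood at 14.0 and 14.0 against 81.8 and 84.5 CPM, and Mcm10, which helps to start replication forks, at 7.28 and 6.87 against 43.7 and 43.0 CPM. Mcm6 and Pcna, expressed at higher levels in the control cells, rose least, 1.31-fold and 1.52-fold. The smallest mitotic rise was that of Foxm1, the factor that drives many of these genes, at 2.34-fold.

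The genes that admit cells to S phase did not rise as a group: of 15 G1 cyclin, CDK and inhibitor genes 6 rose and 6 fell (median 0.03), and on log2(TPM+1) 3 rose and 8 fell (median -0.16). The D cyclins fell, Ccnd3 by 0.62 and Ccnd2 by 0.22 on the log2 scale, and Ccnd1, low in every library, by 2.14. The E cyclins, counted with the replication genes, rose, Ccne1 5.27-fold and Ccne2 4.89-fold. Inhibitors split. Cdkn1b (p27) was 2.17-fold lower at 34.0 and 33.2 against 14.8 and 16 CPM and Cdkn2d (p19INK4d) 2.24-fold lower, while Cdkn2c (p18INK4c) was 3.32-fold and Cdkn2a 2.73-fold higher. The p53 target Cdkn1a (p21) rose 1.24-fold, and of 16 p53 targets 9 rose and 4 fell (median 0.14), but 4 rose and 7 fell on log2(TPM+1) (median -0.06).

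The Cdk1 window is shown because mitotic promoters are known for CCAAT boxes and for the cell cycle homology region, TTTGAA. It lies at chr10:69352913-69353162 (GRCm38.p6, minus strand, RefSeq promoter table), 5′ to 3′, with CCAAT and TTTGAA on either strand in capitals.
Cdk1: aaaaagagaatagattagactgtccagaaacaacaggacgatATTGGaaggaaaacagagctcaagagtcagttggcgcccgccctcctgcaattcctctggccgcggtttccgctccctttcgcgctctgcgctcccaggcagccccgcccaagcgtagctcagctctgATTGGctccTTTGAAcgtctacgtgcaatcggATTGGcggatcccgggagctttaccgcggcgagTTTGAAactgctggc
It held 3 CCAAT matches and 2 TTTGAA matches, which do not overlap. CCAAT stood in 83.3% of the 18 mitosis genes with an entry and in 36.7% of all 10184 windows. TTTGAA stood in 33.3% and 10.6%. Among genes at least 2-fold higher the shares were 41.3% and 14.9%, and among those at least 2-fold lower 33.1% and 11.8%.

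Amino acid stress and secretory genes rose with the Foxp3 guide. Of 22 ATF4 and amino acid stress genes 18 rose and 1 fell (median 0.55; 0.30 on log2(TPM+1)). Slc7a11, the cystine carrier, had the largest rise but stayed near 1 CPM, at 0.0666 and 0.0472 against 1.08 and 0.949 CPM. Chac1, which degrades glutathione, stood at 0.599 and 1.01 against 7.94 and 7.62 CPM, 9.67-fold higher, and the pseudokinase gene Trib3 at 1.71 and 2.27 against 12.5 and 12.8 CPM, 6.38-fold higher. The biosynthetic members were more abundant: Mthfd2, the mitochondrial one-carbon enzyme, stood at 73.0 and 73.3 against 181 and 186 CPM, Asns (asparagine synthetase) at 25.6 and 24.7 against 53.5 and 56.8 CPM and the amino acid carrier Slc1a4 at 9.57 and 9.39 against 28.7 and 28.8 CPM, all higher. Atf4 itself rose 1.23-fold. Ddit4, an inhibitor of mTOR, was 1.46-fold lower, and Ddit3 (CHOP), which promotes death under stress, did not pass, at 9.17 and 9.49 against 9.49 and 10.2 CPM.

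The Chac1 window carries the composite C/EBP-ATF motif of ATF4 targets and is shown for that reason (chr2:119350992-119351241, GRCm38.p6, plus strand, RefSeq promoter table; TGATGNAA and CCAAT on either strand in capitals).
Chac1: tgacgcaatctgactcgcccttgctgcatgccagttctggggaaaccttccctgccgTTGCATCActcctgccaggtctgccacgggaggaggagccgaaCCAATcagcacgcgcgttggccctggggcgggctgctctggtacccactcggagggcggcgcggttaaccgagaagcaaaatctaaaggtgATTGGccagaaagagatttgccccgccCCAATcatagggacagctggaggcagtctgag
It held 1 TGATGNAA and 3 CCAAT matches, none overlapping. TGATGNAA stood in 23.8% of the 21 ATF4 list genes with an entry and in 1.99% of all windows. CCAAT stood in 93.8% of the 16 endoplasmic reticulum (ER) chaperone genes with an entry.

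Of 18 ER chaperone and unfolded protein response genes 16 rose and 1 fell (median 0.52; 0.32 on log2(TPM+1)). Sdf2l1 and Creld2, ER proteins induced by unfolded protein, were 2.44-fold and 1.91-fold higher. The chaperone gene Hsp90b1 (GRP94) stood at 377 and 375 against 624 and 650.0 CPM, 1.70-fold higher, and Hspa5 (BiP) at 1581 and 1516 against 1938 and 1982 CPM, 1.27-fold higher. Xbp1, the transcription factor of this response, was 1.51-fold higher. For 14 of the 18 the guide effect was more positive at 3 h than at 0 h by the test of the difference, and for 0 more negative, where 17.8% and 27% of all genes were.

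Of 20 cholesterol synthesis genes 17 rose and 1 fell (median 0.46; 0.24 on log2(TPM+1)). Fdps, which makes farnesyl pyrophosphate, stood at 15.0 and 15.0 against 38.9 and 41.8 CPM, 2.69-fold higher. The synthesis genes Cyp51 and Hmgcs1 were 1.73-fold and 1.64-fold higher.

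Other metabolic lists moved by amounts that scaling can turn. Ribosome biogenesis genes had 14 higher and 2 lower of 22 and respiratory chain genes 16 higher and 1 lower of 21, with medians of 0.13 and 0.17, but on log2(TPM+1) the medians were -0.05 and -0.04 and each list had 2 higher and 5 lower. Glycolysis and hypoxia genes had 11 higher and 9 lower of 22 (median 0.06), and on log2(TPM+1) 5 higher and 11 lower (median -0.16). The glucose transporter genes fell, Slc2a3 from 76.1 and 73.2 to 39.5 and 39.1 CPM and Slc2a1 from 131 and 137 to 98.5 and 102 CPM, as did Pfkl, a phosphofructokinase subunit (1.75-fold), and Bnip3, a mitophagy receptor (2.14-fold). Pgk1 was 1.40-fold and Eno1 1.38-fold higher, and Ldha, at 1086 and 1110.0 against 1030.0 and 1088 CPM, overlapped between the guides.

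Among survival genes, Bcl2l11 (BIM), the death activator that opposes BCL-2, stood at 107 and 104 CPM with the control guide and at 294 and 288 CPM with the Foxp3 guide, 2.76-fold higher, in the same libraries in which Bcl2 was 1.36-fold higher and Mcl1 1.27-fold lower. The BCL-2 family as a whole had 8 higher and 3 lower of 16 (median 0.15), but 4 higher and 6 lower on log2(TPM+1) (median -0.06). Of 14 granzyme and cytotoxic genes 10 rose and 3 fell (median 0.49): Gzmb stood at 205 and 215 against 509 and 509.7 CPM and the granzyme inhibitor gene Serpinb6b at 27.1 and 25.3 against 139 and 140.2 CPM, both higher, while perforin (Prf1) was 1.78-fold lower. Of 23 interferon-stimulated genes 8 were higher and 10 lower (median -0.14), and on log2(TPM+1) 3 were higher and 11 lower (median -0.23). Ifih1 (MDA5) was 2.30-fold higher, and Gbp4 and Stat2 were 1.8-fold and 1.45-fold lower, beside Irf1 above.

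Genes in no list also had large changes. The rule for naming gave Atp8b4, a lipid flippase (log2 4.33), the solute carrier Slc45a3 (3.84), F2rl2, a thrombin receptor relative (3.53), the dynein gene Dnah12 (3.41) and Lgals3, galectin-3 (3.21), upward. Lgals3 stood at 17.7 and 17.9 against 161 and 169 CPM. Downward, the matrix protein gene Svep1 came first, at 26.8 and 25.1 CPM with the control guide and at 0.531 and 0.413 CPM with the Foxp3 guide, 56.4-fold lower. The others named by the rule were Mreg, melanoregulin (-4.66), Apol9b (-4.66), Gad1, a glutamate decarboxylase (-4.14), the vasodilator peptide Adm (-3.93), Fam160a1 (-3.75), the urea transporter Slc14a1 (-3.43), the ubiquitin ligase Nedd4 (-3.29), the syndecan Sdc4 (-3.25) and Rab6b (-3.24).

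Ranked by the difference in CPM rather than by fold, the rises were led by Il2 (3298 CPM), Eef1a1 (3083), Tnfsf8 (2726), Ccl1 (2010.0), Tmsb4x (1533), Il3 (1464), Ptprc (1266), the kinase gene Jak2 (1215), Fam107b (1013) and the ribosomal protein gene Rpsa. Of these 10, 4 encode a secreted or surface signal (Il2, Tnfsf8, Ccl1 and Il3), while Eef1a1 encodes a translation factor and Tmsb4x an actin-binding peptide. The falls were led by Il2ra (-2279 CPM), the actin gene Actg1 (-1191), the MHC class I gene H2-K1 (-1118), Wnk1 (-994), Tnfrsf9 (-963), H2-Q7 (-855), the osmotic stress factor Nfat5 (-846), Actb (-769), Lrrc32 (-733) and the constitutive chaperone Hspa8 (-694). Reads of Actg1 and Actb, and of H2-K1 and H2-Q7, come from close relatives and may be shared between them. Jak2, which signals for the IL-3, GM-CSF and interferon-gamma receptors, stood at 848 and 807 against 2050.0 and 2034 CPM.

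Genes near the target were looked at because a guide cuts DNA. Of 15 protein-coding genes tested within 250 kb of Foxp3, 6 were higher, 4 lower and 5 not past (median 0.11). Of all tested genes 30.7% were higher and 30.8% lower. Some of the rises were small, and those of 0.15 and 0.16 turned to -0.09 and -0.06 on log2(TPM+1). Ppp1r3f, whose own start overlaps that of Foxp3 on the other strand, fell by 1.10, at 8.04 and 7.13 against 3.14 and 3.83 CPM, and Ccdc22, which shares bases with the far end of Foxp3, did not separate the guides, at 12.2 and 11.2 against 11.5 and 12.4 CPM. The libraries were stranded, but whether counting used the strand is not given in the sources used here, so reads from such shared bases may belong to either gene.

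Transcripts that mark cells other than CD4 T cells also differed between the guides. The 10 B cell markers summed to 98.0 and 100.3 CPM with the control guide and to 33.7 and 34.5 CPM with the Foxp3 guide, most of it Ighm (87.2 and 90.2 against 27.3 and 28.8 CPM), and 4 of the 6 with enough counts to test fell. Erythroid and platelet markers summed to 7.86 and 8.14 CPM against 82.9 and 82.6 CPM, nearly all of it alpha globin (Hba-a1 at 6.46 and 6.49 against 71.0 and 72.3 CPM), while the platelet genes Pf4 and Ppbp were at 0 in all 4 libraries. Reads of the 2 alpha globin genes, Hba-a1 and Hba-a2, can be assigned to either copy. The remaining marker sums were 6.23 to 6.41 against 8.10 to 8.71 CPM for CD8 T cells, 9.48 to 9.70 against 5.13 to 6.04 CPM for NK cells, 5.31 to 6.04 against 7.24 to 7.56 CPM for gamma delta T cells, 3.46 to 3.52 against 5.92 to 6.06 CPM for myeloid cells and 30.2 to 30.7 against 40.4 to 42.1 CPM for stromal cells. Of the tested markers of these types, 2 of 2 rose for CD8 T cells and 2 rose and 1 fell of 4 for NK cells. For gamma delta T cells 1 of 4 rose. Myeloid markers had 2 rises and 2 falls of 4, and stromal markers 2 rises and 1 fall of 3. Of all tested genes 30.7% rose and 30.8% fell. On log2(TPM+1) 0 of the 2 CD8 markers were called (median 0.13), and NK markers had 2 rises and 1 fall. Gamma delta markers had 1 rise and 1 fall on that scale, myeloid markers 1 rise and 2 falls, and stromal markers 1 rise and 0 falls. Klra1 and Klra8, receptors of NK cells, were at 0 in all 4 libraries, and the marker of the NK list that fell was Eomes. The part of these transcripts in the gene groups above was not tested. Of 126 antigen receptor V genes tested 22 were higher and 16 lower (30.2% called). Among 1081 processed pseudogenes 333 were higher and 77 lower (37.9% called), where 61.5% of all tested genes were called. Reads of these pseudogenes may belong to their parent genes.

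The effect of the guide at 3 h was partly that of 0 h. At 0 h 63.3% of all tested genes were called, 34.2% higher and 29.1% lower. Of the 5104 genes higher at 3 h, 3253 were also called higher at 0 h (63.7%), 1219 were not called and 632 were called lower. Of the 5127 genes lower at 3 h, 2978 were also lower at 0 h (58.1%), 1437 were not called and 712 were higher. The difference between the guide effects was called for 44.8% of all tested genes (edgeR quasi-likelihood, Benjamini-Hochberg), more positive at 3 h for 17.8% and more negative for 27%. Cell cycle lists were higher at both times, with medians of 2.39 at 0 h and 2.49 at 3 h for mitosis and of 1.74 and 1.73 for replication, and all 24 and 25 members were called higher at 0 h as well. Of the 22 cytokine genes 4 were called higher and 5 lower at 0 h, against 16 and 4 at 3 h, and the guide effect was more positive at 3 h for 8 of them by the test of the difference. Il2, Il3, Il4, Il5, Il13 and Il31 were not among these 8. Il4 was already called higher at 0 h, by 4.50, at 0.0223 and 0.0816 against 1.13 and 1.38 CPM. At 0 h Il2 reached 0.553 CPM at most, and Il3, Il5, Il13 and Il31 less, so their effects at 0 h rest on few counts.

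Some genes turned from lower to higher. Tnf had a guide effect of -1.03 at 0 h and 1.12 at 3 h, a difference of 2.16 (SE 0.10; edgeR quasi-likelihood test, Benjamini-Hochberg adjusted p = 1e-14). Ccl5 went from -0.47 to 1.63, Cxcr3 from -0.48 to 1.05, Pdcd1 from -0.60 to 0.50 and Stat5a from -1.46 to 0.38. Crtam, an activation-induced adhesion receptor, went from -1.55 to 2.01, but stood below 0.3 CPM in all libraries at 0 h. Others turned from higher to lower: Ccr8 went from 1.82 to -0.47, Tbx21 from 1.86 to -0.50, the fractalkine receptor Cx3cr1 from 2.25 to -1.04 and Npas4, a calcium-induced transcription factor, from 1.76 to -1.73, the last at 0.380 and 0.143 against 0.826 and 0.917 CPM at 0 h. Other genes fell at 3 h after a guide effect near 0 before, among them homing genes: S1pr1 went from 0.11 to -2.17, Ccr7 from -0.07 to -1.64, Klf2, already slightly lower at 0 h, from -0.37 to -2.90 and Cxcr4 from -0.08 to -1.74. The plot of both guide effects shows these genes away from the diagonal.

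**Figure D5:**
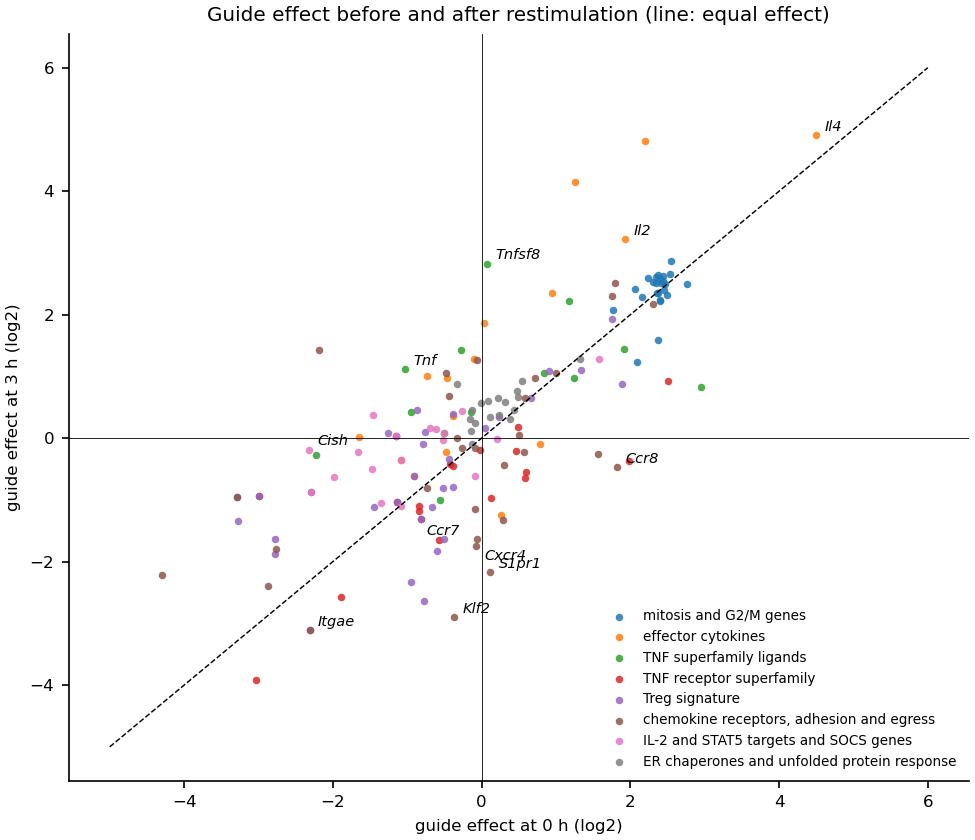
Guide effect (log2, Foxp3 guide minus control guide) at 0 h on the x axis and at 3 h on the y axis for the members of 8 gene lists, 1 point per gene with counts in both groups at 0 h, with the line of equal effect. Mitosis genes lie along the line between 1 and 3, cytokine genes mostly above it, and S1pr1, Ccr7 and Klf2 below it. For several cytokine genes, Il2 and Il4 among them, the difference between the 2 effects was not called.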

How the data were processed

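RNA-seq of 8 stranded libraries was deposited as RSEM expected counts and as TPM per gene. Per the submitters' processing notes, the authors used Trim Galore 0.6.3, STAR 2.7.9a and RSEM 1.3.1 with mouse build mm10/GRCm38. TPM values were deposited as given by RSEM and are relative to all transcripts, so a few abundant genes can shift the rest. The annotation release is not given in the sources used here, and coordinates come from GENCODE M21 on GRCm38 matched by gene ID. Depth limits the low genes: 1 CPM is 38.7 to 94.8 counts per library before scaling.

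Expected counts were rounded, filtered with filterByExpr (16642 of 55665 genes kept), scaled by TMM and fitted over all 8 libraries with 1 mean per group in edgeR 4.0.16 (robust quasi-likelihood test, R 4.3.3), with Benjamini-Hochberg adjustment over all tested genes and a threshold of 0.05. Log2 changes are the Foxp3 guide minus the control guide, and SE is the log2 change divided by the square root of F. Groups came from the labels. The method was tested on simulated counts in which few genes changed, so that test does not bear on scaling when most genes change. Alternatives used DESeq2 1.42.0, limma 3.58.1 on log2(TPM+1) or log2(TPM+0.1), scaling by RLE or by upper quartile, other filters and thresholds, a replicate block, thinning and leaving out each library. Beside Foxp3 and the protein-coding genes within 250 kb of it, single genes were named by rule: where called, with guides not overlapping and a mean of at least 5 CPM, leaving out unnamed gene models, pseudogenes and antigen receptor segments, the 12 largest log2 changes and the 10 largest CPM changes in each direction, the 6 largest differences from the effect at 0 h in each direction; and, at any level, up to 6 called members of each gene list in each direction and members not past the test. Some members that the rule names are not reported here. Genes and lists were chosen with earlier results of these data known. Of 12962 tested protein-coding genes with a unique symbol 10184 had an entry in the RefSeq promoter table.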

Additional observations from a re-analysis of the deposited data

Results flagged for a closer look

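Every result here is a gene whose guide effect at 3 h differed from that at 0 h by the test of the difference itself (edgeR quasi-likelihood test, Benjamini-Hochberg adjusted p below 0.05). This held for 7457 of the tested genes and for 198 of the 262 genes named, so such a difference was common in these libraries. Values are the log2 guide effect at 3 h minus that at 0 h. With 2 libraries in a group, single libraries could not be tested for standing apart.

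The most positive differences under the naming rule were those of Olr1 (6.42), Slc45a3 (5.51), Ankrd55 (4.05), Cavin1 (3.88), Ccn4 (3.67) and Crtam (3.56). Olr1, a scavenger receptor gene, was near absent at 0 h, at 0 and 0.122 CPM with the control guide and at 0 in both Foxp3-guide libraries, and stood at 26.9 and 26.2 against 76.1 and 75.8 CPM at 3 h. Slc45a3 was also below 0.2 CPM and Crtam below 0.3 CPM in all libraries at 0 h, and Npas4, named next, below 1 CPM, so the size of these 4 differences rests on few counts. Ankrd55, an ankyrin repeat gene, had its difference at 0 h: it stood at 8.53 and 7.83 CPM with the control guide and at 0.770 and 0.509 CPM with the Foxp3 guide, against 5.24 and 5.12 and 6.67 and 6.81 CPM at 3 h. Cavin1, a caveolar coat gene, stood at 1.65 and 2.51 against 0.140 and 0.0873 CPM at 0 h, while its change of -0.29 at 3 h did not pass without any 1 of the 4 libraries at 3 h (-0.33 to -0.24). Ccn4, a matricellular protein gene, stood at 1.07 and 0.734 against 0.182 and 0.175 CPM at 0 h and at 19.3 and 19.1 against 50.1 and 48.2 CPM at 3 h.

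The most negative differences were those of Npas4 (-3.49), Cx3cr1 (-3.29), Apol9b (-2.82), Slc14a1 (-2.68), Klf2 (-2.53) and Gadd45g (-2.42). Gadd45g, a stress and growth arrest gene induced by activation, stood at 3.35 and 2.81 against 5.61 and 4.76 CPM at 0 h and at 140 and 157 against 44.9 and 48.4 CPM at 3 h. Cx3cr1 stood at 4.56 and 4.71 against 21.3 and 22.8 CPM at 0 h and at 9.43 and 9.09 against 4.49 and 4.51 CPM at 3 h.

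Of the 262 named genes, 40 were called in opposite directions at the 2 times, 20 of them higher at 3 h and 20 lower. By the calls at each time alone, 632 of all 16642 tested genes turned to higher and 712 to lower. Some of the 262 were named for their large differences, so their share cannot be set against that of all genes. Besides those above, the genes that turned to higher were the ligands and chemokines Tnf (2.16), Ccl5 (2.10) and Tnfsf11 (1.69), the opioid precursor Penk (1.33), the receptors Cxcr3 (1.53), Pdcd1 (1.10) and Icos (0.77), the phosphatase Ptprc (1.29), the transcription factors Stat5a (1.85), Foxp1 (1.34), Rela (0.77) and Irf4 (0.39), the survival gene Bcl2 (0.70), the mRNA decay gene Rc3h1 (0.71), the RNA sensor Ifih1 (1.69) and Serpinb6b (2.67). Those that turned to lower were the trafficking receptors Ccr8 (-2.29) and S1pr1 (-2.28), the transcription factors Tbx21 (-2.36), Eomes (-1.53) and Lef1 (-1.23), the cytokine Il16 (-1.51), the receptors Ifngr2 (-1.58), Il18r1 (-1.22), Il7r (-1.09) and Vsir (-0.82), the signalling genes Pde4a (-2.09), Pde4b (-1.32) and Trac (-0.62), the CDK inhibitor Cdkn2d (-1.81), the glucose transporter Slc2a1 (-0.56) and the actins Actg1 (-0.76) and Actb (-0.69).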

How the results depend on the processing

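The count of 10231 genes called at 3 h (5104 higher, 5127 lower) fell to 6039 (2754 and 3285) when tested against a 1.2-fold change and to 2760 (1283 and 1477) at 2-fold or more. Higher genes were 2463 on log2(TPM+1), 2502 on log2(TPM+0.1) and 2421 on log2(TPM+1) with no filter, where 27.2% to 29.4% of the calls were higher against 49.9%. The other settings kept these 3 counts within 1.5 times, with DESeq2 calling 8733 and upper-quartile scaling 10213. Leaving out each library in turn gave 8882 to 10291 calls, 4647 to 5161 higher and 3993 to 5133 lower, the lone library of a guide being assumed to vary like the other groups. Without the second Foxp3-guide library at 3 h 55.0% of the calls were higher. The difference between the guide effects, 7457 genes, was called for 6541 to 7323 without 1 library and 7299 with RLE scaling. Replicate numbers are only names here: deviations of same-numbered libraries correlated at -0.076 to 0.009, and the replicate block gave 10034 calls and 7240 called differences.

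Among the named genes the sign turned on TPM for Cd3e (-0.01), Sept8 (-0.04), Tnfrsf4 (-0.19) and Cd28 (-0.21) in all 3 fits. For Lta (-0.12) it turned in the 2 filtered fits. Tnfrsf4, Cd28 and Lta turned as called falls. Of 262 named genes, 248 were called in the fit over all 8 libraries. Under each of the 22 settings that tested them, 144 of the 262 either kept call and direction or stayed uncalled. The threshold of 2-fold alone took the call from 105, whose changes were smaller than that. List medians turned negative on TPM for Foxp3 cofactors, ERK phosphatases, G1 cyclins, glycolysis, ribosome biogenesis, respiratory chain, p53 targets and the BCL-2 family, which lay between 0.03 and 0.17 on counts. Thinning to the smallest library total left 9567 calls. Genes below about 1 CPM rest on fewer than 100 counts a library, and requiring 1 CPM in each library at 3 h left 8180 calls among 11551 genes.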
